A study of Capra hircus with 6 samples.

Results

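The enzymes that build, lengthen, and desaturate fatty acids were examined in dermal papilla cells of cashmere goats treated with all-trans retinoic acid (ATRA), a vitamin A derivative and ligand of nuclear retinoic acid receptors. The set was fixed by name as 10 genes, *ACLY*, *ACACA*, *ACACB*, *FASN*, *SCD*, *FADS1*, *FADS2*, *ELOVL5*, *ELOVL6*, and *ACSL3*, and each was found once among the 15944 genes of the deposited table. RNA-seq was performed on secondary hair follicle dermal papilla cells (SHF-DPCs), grown as wild-type primary cultures from scapular skin of 3-year-old Albas cashmere goats and used at passages 4 to 7. The ATRA-treated group (3 libraries) received 0.1 mM ATRA for 24 h, a dose and time chosen by the study from viability, proliferation, and apoptosis assays, and the control group (3 libraries) received medium without ATRA. The labels place all 6 libraries in batch 1. The methods state that the cells came from 3 animals, without saying which library came from which animal, so n counts libraries.

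Fatty acid synthesis starts in the cytosol, where citrate is cleaved to acetyl-CoA, acetyl-CoA is carboxylated to malonyl-CoA, and fatty acid synthase joins these units into palmitate. Elongases then lengthen the chain, and desaturases place double bonds in it, which yields the oleate and the polyunsaturated chains of membrane lipids. Many of these genes are known targets of the SREBP transcription factors, which also control sterol synthesis. In skin the pathway is best known from the sebaceous gland, while every dividing cell needs fatty acids for new membrane.

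Total counts ranged from 35532339 to 38012771 per library. Levels are given as normalized CPM, the counts per 1000000 of a TMM-adjusted library total, and changes as the log₂ fold change (log₂FC) of the ATRA-treated group against the control group. A gene was called higher or lower at an adjusted p under 0.05 in edgeR's quasi-likelihood test over the 12588 genes that passed the expression filter. The TMM factor averaged 0.847 ± 0.00499 (SD, n = 3) for control libraries and 1.18 ± 0.0158 for ATRA libraries, so the scaling moves every log₂FC. Dividing by library size only moved the median log₂FC of all tested genes from 0.04 to 0.52. Since these are bulk libraries, fewer cells of a type and less RNA per cell cannot be told apart. The sum of dermal papilla and mesenchymal markers (14 of 15 found) was between 30412 and 33026 CPM in the control libraries. In the ATRA libraries it was between 2108 and 2140 CPM. Most of the control sum came from *VIM* and *ACTA2*. The means of *VIM* were 19158 CPM in the control group and 1595 CPM with ATRA, and those of *ACTA2* were 6582 and 8.37 CPM. All 9 markers tested were lower (median log₂FC -3.59), beside 38.7% of all tested genes. The papilla markers *PROM1*, *ALPL*, and *CORIN* had at most 3 counts in every library.

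Of the 9 genes in the set that passed the expression filter, 8 were lower with ATRA and 1, *ACACA*, was higher. Among all tested genes, 4877 (38.7%) were called lower and 5151 (40.9%) higher; with library size only these counts were 2861 and 7921. The median log₂FC of the 9 genes was -1.28, against 0.04 over all tested genes. The control and ATRA libraries did not overlap for any of the 9, 8 with all ATRA libraries below and 1 with all above, against 39.0% and 41.2% of all tested genes (80.1% in either direction). With the study's thresholds, |log₂FC| above 1 and an unadjusted p under 0.05, 6 of the 9 were lower and 0 higher, against 17.3% and 13.7% of all tested genes. Together the 10 genes took 0.116% ± 0.00333 (SD, n = 3) of the control counts and 0.0733% ± 0.00357 of the ATRA counts, shares of raw counts without TMM scaling. Their summed normalized CPM was 1367 ± 42.3 in the control group and 621 ± 26.0 with ATRA (SD, n = 3 each).

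**Figure D1:**
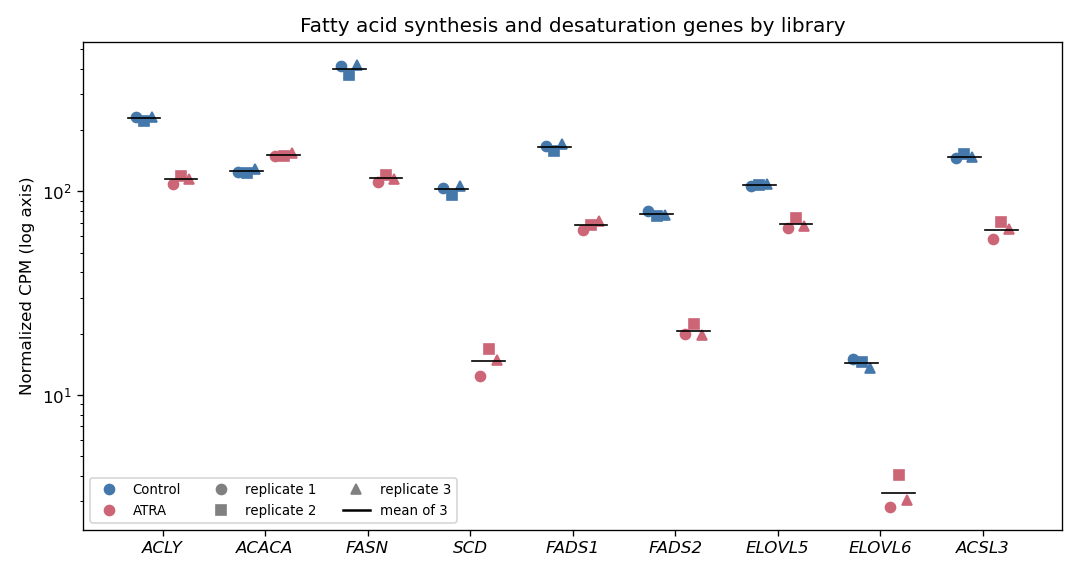
Normalized CPM (log axis) of the 9 tested genes in each of the 6 libraries, with blue for control, red for ATRA, a symbol for each replicate number, and a line at the mean of 3. The groups are apart for every gene, and *ACACA* is the one gene with the ATRA libraries on top.

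The first step of the pathway is carried out by ATP citrate lyase (*ACLY*), which makes cytosolic acetyl-CoA from citrate. *ACLY* had 231, 222, and 231 normalized CPM in the control libraries and 109, 119, and 115 in the ATRA libraries. All ATRA libraries were near the same level and below all control libraries. Its log₂FC was -0.99 (SE 0.0561, adjusted p = 8.94e-12), a level 1.99-fold lower with ATRA. Acetyl-CoA carboxylase alpha (*ACACA*), which makes malonyl-CoA and is regarded as the committed step, went the other way. It had 124, 123, and 128 CPM in the control libraries and 149, 148, and 154 CPM with ATRA. Its log₂FC was 0.27 (SE 0.0542, adjusted p = 0.000185), or 1.21-fold higher. Under TMM scaling the rise was small beside the falls around it, and it kept its direction and its call in all 14 alternatives. With library size only its log₂FC was 0.75, larger in size than that of *ACLY* (-0.52).

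The second carboxylase, *ACACB*, whose product at the mitochondrial surface is known to restrain fatty acid oxidation, was close to absent. It had 0, 0, and 1 counts in the control libraries and 6, 2, and 4 counts in the ATRA libraries, and it did not pass the expression filter. The ratio of the summed counts, 1 against 12, was 8.90 after scaling, with an exact 95% binomial interval from 1.32 to 381 that covers counting error only. When every gene with at least 1 count was tested, its adjusted p was 0.0464.

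Fatty acid synthase (*FASN*), the multidomain enzyme that assembles palmitate, had 410.2, 372, and 419 CPM in the control libraries. In the ATRA libraries it had 111, 121, and 115 CPM, all far below the control range. Its log₂FC was -1.79 (SE 0.0613, adjusted p = 4.53e-15), or 3.46-fold lower. Its transcript fell while that of *ACACA*, whose product is the malonyl-CoA it uses, rose.

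Stearoyl-CoA desaturase (*SCD*), which places the double bond of oleate and palmitoleate, showed the largest fall of the set. It had 104, 96.0, and 106 CPM in the control libraries and 12.3, 16.8, and 14.8 CPM in the ATRA libraries. The log₂FC was -2.80 (SE 0.0921, adjusted p = 4.58e-15), or 6.97-fold lower. No ATRA library came near the control range.

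*FADS1* and *FADS2* encode the delta-5 and delta-6 desaturases of polyunsaturated fatty acids. In the RefSeq gene order of the goat they lie in a row with *FADS3*, a related desaturase. *FADS2* had 79.7, 75.8, and 76.2 CPM without ATRA and 20.0, 22.4, and 19.7 CPM with it (log₂FC -1.90, SE 0.0716, adjusted p = 1.93e-14). *FADS1* had 166, 157, and 171 CPM without ATRA and 64.2, 68.0, and 71.7 CPM with it (log₂FC -1.28, SE 0.0611, adjusted p = 7.27e-13). Both fell in every ATRA library, *FADS2* 3.73-fold and *FADS1* 2.43-fold. *FADS3*, from the list of related enzymes, fell from 323 ± 23.0 to 99.3 ± 2.29 CPM (SD, n = 3 each, log₂FC -1.70, adjusted p = 9.21e-15).

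Both elongases of the set fell, by different amounts. *ELOVL6*, which lengthens palmitate to stearate, had 15.0, 14.6, and 13.6 CPM in the control libraries and 2.80, 4.06, and 3.04 CPM in the ATRA libraries (log₂FC -2.12, SE 0.133, adjusted p = 4.35e-11). These values rest on 121 to 179 counts per ATRA library, and the spread among the ATRA libraries, 20.2% of their mean, was the widest of the 9 genes. *ELOVL5*, which lengthens polyunsaturated chains, had 106, 107, and 108 CPM in the control libraries and 65.7, 74.0, and 67.3 CPM in the ATRA libraries. Its log₂FC of -0.63 (SE 0.0614, adjusted p = 2.53e-08) was the smallest fall of the set.

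*ACSL3* encodes an acyl-CoA synthetase of the endoplasmic reticulum and lipid droplets that activates long-chain fatty acids for use in lipids. It had 145, 152, and 147 CPM in the control libraries and 58.1, 70.5, and 65.3 CPM in the ATRA libraries. The groups were apart, with a log₂FC of -1.20 (SE 0.0679, adjusted p = 9.90e-12), or 2.29-fold lower.

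Ordered by log₂FC, the set ran from *SCD* through *ELOVL6*, *FADS2*, *FASN*, *FADS1*, *ACSL3*, *ACLY*, and *ELOVL5* to *ACACA*. Neighbours in this order were compared by their difference and its combined SE. The combined SE treats the changes as independent, although all come from the same libraries, so it is only a rough guide. *ELOVL6* and *FADS2* differed by 0.22 (combined SE 0.151), *FADS2* and *FASN* by 0.11 (combined SE 0.0943), and *FADS1* and *ACSL3* by 0.08 (combined SE 0.0914), all within 2 combined SEs. The other 5 steps were wider than that, from 0.20 between *ACSL3* and *ACLY* to 0.90 between *ELOVL5* and *ACACA*.

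**Figure D2:**
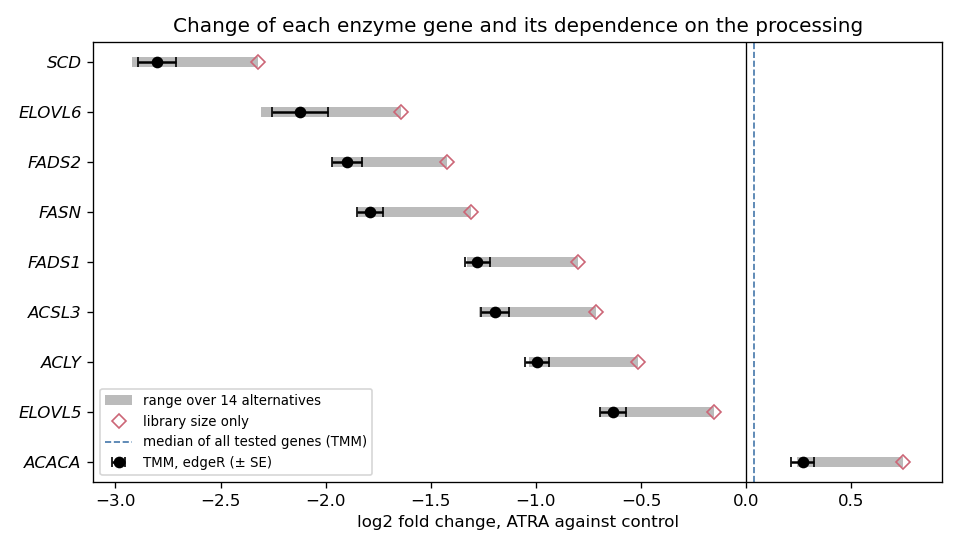
The log₂FC of each tested gene (x axis) under TMM scaling with its SE (black), with library size only (open diamonds), and its range over 14 alternatives (grey bars), with a dashed line at the median of all tested genes. *SCD* lies lowest at -2.80, and library size only moves every gene to the right without turning a sign.

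Library size only, the alternative that moved the genes most, left a log₂FC of -0.52 for *ACLY*, -0.80 for *FADS1*, -0.72 for *ACSL3*, and -0.15 for *ELOVL5* (adjusted p = 0.0336), and 0.75 for *ACACA*. Set against the median of all tested genes under the same scaling, 0.52, the 8 falling genes stayed below it. Among the ATRA libraries, replicate 2 was the highest for 7 of the 9 genes, while it was the highest for 38.3% of all tested genes. This library also stood furthest from its group, with a chi-square per degree of freedom of 18.4 and 17.3 against ATRA replicates 1 and 3, which differed from each other by 5.01. Without it, the same count of 8 genes was called lower, and the log₂FC was -2.92 for *SCD*, -2.31 for *ELOVL6*, and -1.27 for *ACSL3*.

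Ratios between related enzymes within a library do not depend on the scaling, apart from the pseudocount, and 5 pairs were compared with an exact permutation test (two-sided, Benjamini-Hochberg over the 5 pairs). With 3 libraries against 3 the smallest p is 0.1. *SCD5*, a second stearoyl-CoA desaturase, did not pass the test, at 29.3 ± 1.09 CPM in the control group and 32.6 ± 1.86 CPM with ATRA (SD, n = 3 each, log₂FC 0.15, SE 0.0744, adjusted p = 0.0647). The log₂ ratio of *SCD* to *SCD5* reads went from 1.78 ± 0.0632 to -1.14 ± 0.139 (SD, n = 3 each), a difference of -2.92 (SE 0.0883, exact p = 0.1, adjusted p = 0.125). Reads on *SCD5* outnumbered those on *SCD* in every ATRA library and in no control library. The sign of *SCD5* itself was positive under every scaling, and upper-quartile scaling (0.23), library size only (0.63), a CPM filter (0.17), and leaving out ATRA replicate 1 (0.20) took it past the threshold.

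The ratio of *FADS1* to *FADS2* rose by 0.61 (SE 0.0844), from 1.09 ± 0.0641 to 1.69 ± 0.131 on the log₂ scale (SD, n = 3 each), since *FADS2* fell further. The ratio of *ELOVL6* to *ELOVL5* fell by 1.35 (SE 0.102), from -2.85 ± 0.0841 to -4.21 ± 0.156 (SD, n = 3 each). For *ACSL3* and *ACSL4*, another long-chain synthetase, the ratio changed by -0.28 (SE 0.0602). In these 3 pairs the ATRA and control libraries did not overlap (exact p = 0.1, adjusted p = 0.125 each). The ratio of *ACACA* to *ACACB* differed by 0.05 (SE 0.0651, exact p = 0.5), a value set mainly by the pseudocount because of the few *ACACB* counts.

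**Figure D3:**
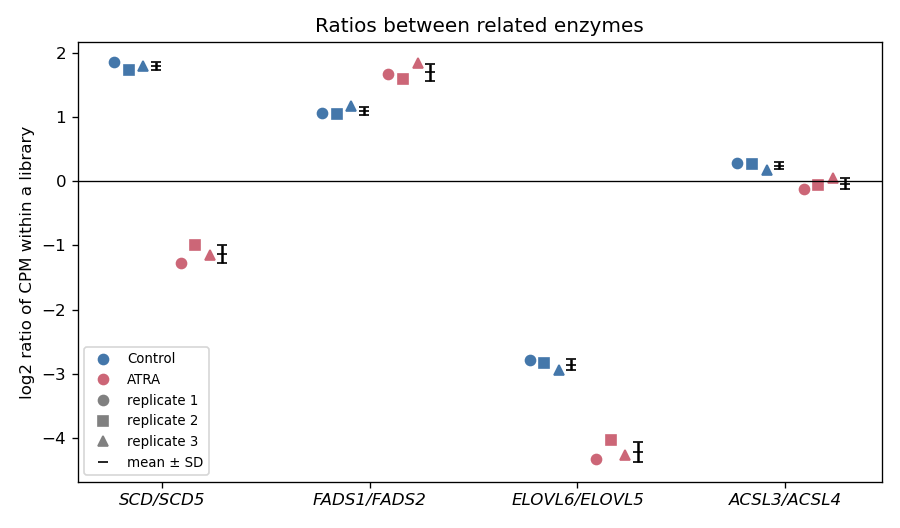
Log₂ ratio of the CPM of 2 related enzymes (y axis) in each control (blue) and ATRA (red) library, with mean ± SD, for 4 of the 5 pairs (*ACACA* and *ACACB* are not drawn). For *SCD* and *SCD5* the ratio lies above 0 in the 3 control libraries and below 0 in the 3 ATRA libraries.

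The remaining enzymes of elongation, desaturation, and acyl-CoA activation were examined next. Of 18 genes listed, 13 were tested, 8 were lower, 2 higher, and 3 called in neither direction, with a median log₂FC of -0.73. The shares over all tested genes were 38.7% lower and 40.9% higher. *HACD2* and *HSD17B12*, which carry out the dehydration and first reduction steps of each elongation cycle, fell with a log₂FC of -1.48 (SE 0.0566) and -1.51 (SE 0.0708). *ELOVL1*, an elongase of saturated very long chains, had -1.37 (SE 0.0720). *ACSL5* fell most, from 23.4 ± 1.63 to 2.75 ± 0.106 CPM (SD, n = 3 each, log₂FC -3.09, adjusted p = 5.88e-15). The synthetase *ACSL1* rose, with a log₂FC of 0.53 (SE 0.0642), and so did *ELOVL4*, an elongase of ultra-long chains, from 1.52 ± 0.106 to 2.94 ± 0.812 CPM (adjusted p = 0.000892). The call for *ELOVL4* was lost with R's t.test function. The synthetases and elongases of this list did not all move in the same direction.

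Of 12 genes that supply citrate, acetyl-CoA, and NADPH, 5 were lower and 5 higher, with a median log₂FC of 0.00498. Over all tested genes, 38.7% were lower and 40.9% higher. Library size only gave 2 lower and 8 higher, a setting that called 2861 of all tested genes lower and 7921 higher. *SLC25A1*, the mitochondrial citrate carrier upstream of *ACLY*, fell from 160.4 ± 11.2 to 52.9 ± 3.91 CPM (SD, n = 3 each, log₂FC -1.60, adjusted p = 1.58e-13). *IDH1*, a cytosolic source of NADPH, had a log₂FC of -1.50 (SE 0.0610). The malic enzyme gene *ME1*, another source of NADPH, rose with 0.60 (SE 0.0557). The pentose phosphate genes *TKT* and *TALDO1* rose with 1.58 (SE 0.0605) and 1.33 (SE 0.0560), where *TALDO1* is the row listed as LOC102184409. The number lower depended on the libraries, since it was 3 without Control replicate 2.

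All 7 genes listed for the separate mitochondrial fatty acid synthesis pathway, which makes the precursor of lipoic acid, passed the expression filter. Of the 7 genes, 4 were higher, beside 40.9% of all tested genes, and 3 passed in neither direction, with a median log₂FC of 0.30. With library size only 7 were higher, as were 7921 of the 12588 tested genes. *ACSF3*, which activates malonate in mitochondria, had a log₂FC of 0.63 (SE 0.110), and *NDUFAB1*, the mitochondrial acyl carrier protein, had 0.57 (SE 0.0758). In each case all ATRA libraries were above all control libraries.

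Among regulators of lipogenesis, 6 of 18 tested genes were lower and 10 higher, beside 38.7% and 40.9% of all tested genes. With library size only, 2 were lower and 14 higher, as were 2861 and 7921 of the 12588 tested genes. The SREBP genes went opposite ways. *SREBF1*, whose product is best known as the activator of fatty acid genes, had 31.4, 27.3, and 28.3 CPM in the control libraries and 39.6, 35.6, and 38.3 CPM in the ATRA libraries. All ATRA libraries were above the control libraries, with a log₂FC of 0.38 (SE 0.0772, adjusted p = 0.000185). *SREBF2*, whose product is best known for sterol genes, fell from 300.4 ± 15.9 to 100.1 ± 2.74 CPM (SD, n = 3 each, log₂FC -1.58, SE 0.0580). *INSIG1*, which retains the SREBP precursors in the endoplasmic reticulum and is itself an SREBP target, had a log₂FC of -1.50 (SE 0.0736). *NR1H2*, the liver X receptor beta gene, rose with 1.14 (SE 0.0644).

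The largest rises among the regulators came from genes that were nearly silent in the control group. *MLXIPL*, which encodes the glucose-responsive activator ChREBP, had 0, 2, and 3 counts in the control libraries and 153, 152, and 99 counts with ATRA (adjusted p = 5.92e-10). *PRKAA2*, a catalytic subunit of AMPK, the kinase that inactivates acetyl-CoA carboxylase, had 6, 4, and 4 counts and 93, 110, and 97 counts (adjusted p = 2.23e-09). *PRKAA1*, the other catalytic subunit, was more abundant and fell from 38.0 ± 1.47 to 29.2 ± 4.33 CPM (SD, n = 3 each, log₂FC -0.38, adjusted p = 0.00097), a direction that turned with library size only (log₂FC 0.10, adjusted p = 0.337). The sizes of the rises of *MLXIPL* and *PRKAA2* rest on a few control counts. *CEBPA*, an adipogenic transcription factor, rose from 5.32 ± 0.626 to 15.6 ± 0.936 CPM (SD, n = 3 each, log₂FC 1.55). All 6 genes of SREBP-2 sterol synthesis and uptake fell, beside 38.7% of all tested genes, with a median log₂FC of -1.88. Among them *HMGCS1*, which makes HMG-CoA, had -3.14 (SE 0.0690).

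**Figure D4:**
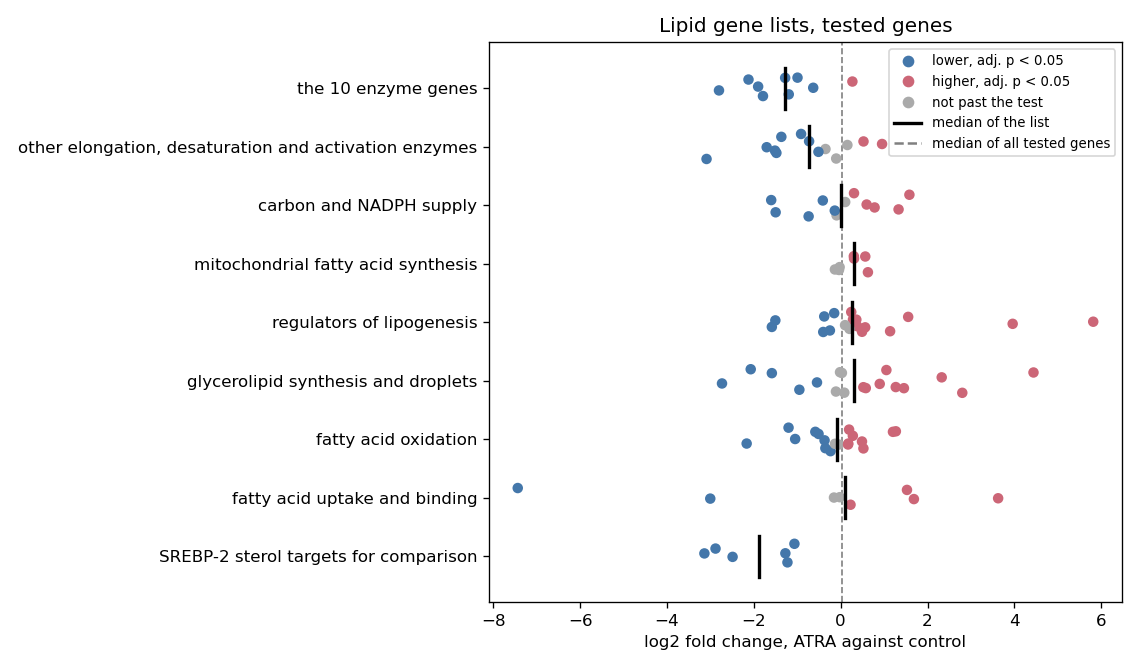
The log₂FC of every tested gene (points) among the 10 enzymes (9 tested) and in 8 lists of related genes, with blue for called lower, red for called higher, grey for neither, a bar at each list's median, and a dashed line at the median of all tested genes. The medians of the set (-1.28), the sterol list (-1.88), the other elongation, desaturation, and activation enzymes (-0.73), and oxidation (-0.09) lie below 0. The lists for the other enzymes, storage, oxidation, and supply hold genes on both sides.

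Of 18 tested genes for glycerolipid synthesis and droplets, 9 were higher and 5 lower, beside 40.9% and 38.7% of all tested genes, with a median log₂FC of 0.30. *GPAT3*, a glycerol-3-phosphate acyltransferase, rose from 4.76 ± 0.797 to 103.6 ± 3.84 CPM (SD, n = 3 each, log₂FC 4.44, SE 0.0954). *PLIN2*, the droplet coat protein found in most cell types, had 90.3, 82.1, and 83.7 CPM in the control libraries and 580, 583, and 619 CPM with ATRA, a level 6.96-fold higher (adjusted p = 7.15e-18). *GPAT4* (log₂FC 1.27, SE 0.0579) and *PNPLA2*, the first lipase of stored triglyceride (log₂FC 1.46, SE 0.0868), also rose. *LPCAT3*, which places polyunsaturated chains into phospholipids, fell from 52.9 ± 4.94 to 7.96 ± 0.433 CPM (log₂FC -2.73, SE 0.0894).

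Of 18 tested genes of fatty acid oxidation, 8 were lower and 8 higher, shares near those of all tested genes. These counts were 3 lower and 11 higher with library size only, and 8 lower and 4 higher with R's t.test function. *CPT1A*, the carnitine palmitoyltransferase that is inhibited by malonyl-CoA, rose from 134 ± 3.66 to 324 ± 11.7 CPM (SD, n = 3 each, log₂FC 1.27, adjusted p = 1.73e-13). *CPT2*, the next enzyme of the shuttle, had a log₂FC of 0.52 (SE 0.0734). *ACADL*, a long-chain acyl-CoA dehydrogenase, fell with -1.05 (SE 0.0773). Of 8 tested genes for uptake and binding, 4 were higher and 2 lower, beside 40.9% and 38.7% of all tested genes. Under the CPM filter 2 were higher. Among the binding proteins, *FABP3* fell from 54.4 ± 5.09 to 0.311 ± 0.0699 CPM and *DBI*, the acyl-CoA binding protein, from 30.8 ± 3.60 to 3.85 ± 0.528 CPM (log₂FC -3.00). *FABP5* had 5.75 ± 0.725 and 5.67 ± 0.744 CPM and was not called (adjusted p = 0.892), although it was higher with library size only (log₂FC 0.46). *ACBD3*, which holds an acyl-CoA binding domain, rose from 112 ± 5.76 to 131 ± 6.63 CPM (log₂FC 0.23, adjusted p = 0.00232). *SLC27A1*, a fatty acid transporter, rose with a log₂FC of 1.69 (SE 0.104).

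The genes whose level across the 6 libraries was most like the mean profile of the 10 enzymes were *PARP1*, *ELK3*, and *HOXC8*, with Euclidean distances of 0.0348, 0.0390, and 0.0416 between centred log₂ CPM profiles. *PARP1*, a DNA repair enzyme, went from 172.8 ± 3.44 to 74.2 ± 3.31 CPM (SD, n = 3 each), and *ELK3* and *HOXC8*, both transcription factor genes, had a log₂FC of -1.21 and -1.19.

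Markers of other cell types were also summed, and in most lists 1 gene carried the sum. Adipocyte markers (6 of 7 found) summed to 18.8 to 23.4 CPM in the control libraries and 5.73 to 7.15 CPM with ATRA, a fall that came from *CIDEC*, at 17.1 ± 1.37 and 0.630 ± 0.346 CPM (SD, n = 3 each). Of the 4 adipocyte markers tested, 1 was lower and 2 were higher, beside 38.7% and 40.9% of all tested genes, with a median log₂FC of 0.65. The higher ones were *PLIN1*, a droplet coat protein of adipocytes (log₂FC 1.20, adjusted p = 0.000215), and *ADIPOQ*, the adiponectin gene, with 23, 4, and 14 counts in the control libraries and 44, 32, and 38 with ATRA (adjusted p = 0.0269). The call for *ADIPOQ* was lost in 6 alternatives, among them DESeq2 (adjusted p = 0.0514) and leaving out Control replicate 2 (log₂FC 0.59). Sebocyte markers (6 of 6 found) summed to 40.6 to 44.5 CPM and 53.0 to 61.0 CPM, nearly all of it *SOAT1*, and the other 5 had at most 3 counts in every control library. With the ATRA libraries included, 1 of the 6 stayed at or under 3 counts throughout, and *ELOVL3* had 15, 8, and 3 counts with ATRA.

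Endothelial markers (5 of 5 found) summed to 0.903 to 1.24 CPM and 6.19 to 9.16 CPM. *PECAM1* made up most of the ATRA sum, with 242, 340, and 206 counts there and 0 in each control library, while *KDR* had 5, 6, and 10 counts and 2, 1, and 0 counts, *CDH5* had at most 1 count in any library, and *VWF* was not called (adjusted p = 0.909). *TEK* was also called higher (log₂FC 0.87), a call that was lost without Control replicate 3 or without ATRA replicate 1. Leukocyte markers (3 of 4 found) summed to 2.69 to 5.86 CPM and 10.7 to 12.0 CPM, nearly all of it *CD68*, at 4.14 ± 1.54 and 11.0 ± 0.700 CPM (SD, n = 3 each), and *CSF1R* had 3 to 7 counts in every library. Keratinocyte markers (5 of 6 found) summed to 3.11 to 4.95 CPM and 5.26 to 5.95 CPM, of which *KRT10* made up most (log₂FC 0.82, SE 0.175), while *KRT14* had 20, 14, and 10 counts and 3, 0, and 0 counts with ATRA. Melanocyte markers (1 of 4 found) gave 3.80 to 4.26 CPM and 1.97 to 2.34 CPM. The part of these marker changes in the falls of the fatty acid enzymes was not tested.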

How the data were processed

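RNA-seq counts of 3 control and 3 ATRA libraries of cultured SHF-DPCs were analysed, grouped by their titles. The authors selected poly(A) mRNA on oligo(dT) beads, cleaned the reads with fastp and TrimGalore (v0.6.6), and deposited raw counts per gene. HISAT2, featureCounts, and DESeq2 stand in the submitters' processing notes without versions. The genome build and annotation are not given in the sources used here, and so neither is the assignment of reads shared by similar genes. All 10 genes matched RefSeq symbols (ARS1.2).

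After edgeR's filterByExpr by group and TMM scaling, the counts went into its robust quasi-likelihood test (two-sided, no covariate, Benjamini-Hochberg over all tested genes). The standard error (SE) is the size of the log₂FC divided by √F. Ratios between enzymes used exact permutation tests on log2 ratios of CPM plus 0.5. Also run were DESeq2, the t.test function of R named in the paper's methods, other scalings and filters, a replicate block, and leave-one-out fits. The tests were also run on simulated counts with as many rises as falls, a setting that does not try the scaling.

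All 10 genes are named. From the 8 lists, up to 4 genes past the test with the largest changes could be named, plus those whose role a sentence needed. Single marker genes, and *PRKAA1*, *FABP5*, and *ACBD3*, were named after their values were seen. The members and lists were chosen with earlier results of these data known. The 3 genes nearest the members' mean profile had a mean CPM of at least 1 and no LOC number. Promoter motifs were not searched. edgeR 4.0.16 (with limma 3.58.1) and DESeq2 1.42.0 ran under R 4.3.3. Figures were drawn with matplotlib 3.10.9 and Python 3.11.15.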

Additional observations from a re-analysis of the deposited data

How the results depend on the processing

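All 9 tested fatty acid enzymes kept their direction and call in 14 of 14 alternatives, and the largest adjusted p was 0.0336, for *ELOVL5* with library size only. Testing every gene with at least 1 count gave 2 higher members, with *ACACB* added, and the fold threshold gave 0. Leaving out each library kept 8 lower and 1 higher. Library size only gave 4 higher among the other enzymes, 2 lower and 8 higher in carbon and NADPH supply, and 7 higher in mitochondrial synthesis. It also gave 2 lower among regulators and 3 lower in oxidation. Over all tested genes it called 2861 lower and 7921 higher. R's t.test function gave 1 higher among the other enzymes and 4 higher in oxidation. With it the calls for *KRT10* (adjusted p = 0.0761), *CD68* (adjusted p = 0.0521), and *PRKAA1* (adjusted p = 0.101) were lost. The CPM filter gave 3 lower in carbon supply and 2 higher in uptake. The number lower in carbon supply ranged from 3 to 5 when each library was left out. With library size only the log₂FC of *PRKAA1* turned to 0.10, and that of *FABP5*, which was not called, was 0.0556 with upper-quartile scaling, 0.46 with library size only, and -0.12 to 0.0650 with a library left out. The causes were not tested. The enzyme ratios kept their direction throughout, at -2.99 to -2.85 for *SCD* and *SCD5* with a library left out. With few counts, as for *ACACB*, *MLXIPL*, and *PRKAA2*, depth limits the size of a change.

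The replicate numbers gave no sign of pairing, with correlations of deviations of 0.156, 0.00653, and -0.13 between same-numbered samples, and not every sample correlated best with its own number. With the replicate block, 8 members were lower and 1 higher, and 4869 and 5123 of all genes were.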

Other observations

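Other lipid genes, picked after their values were seen from the pathway annotation in the deposited table, also changed. In sphingolipid metabolism, 15 of 37 tested genes were lower and 17 higher, beside 38.7% and 40.9% of all tested genes. *SPTLC3*, a subunit of the enzyme that starts sphingolipid synthesis from an acyl-CoA, rose from 5.65 ± 0.465 to 76.1 ± 9.68 CPM (SD, n = 3 each, log₂FC 3.75, SE 0.104). *SPTLC2*, the related subunit, fell from 229 ± 2.41 to 116 ± 4.86 CPM (log₂FC -0.98, SE 0.0550). *SPHK1*, which makes sphingosine 1-phosphate, had a log₂FC of -2.51 (SE 0.0670), and *SGPL1*, which cleaves it, had 1.81 (SE 0.0616). Among ceramidases, *ASAH1* had -1.70 (SE 0.0722), while *ACER2* rose from 1.04 ± 0.155 to 10.2 ± 1.13 CPM (log₂FC 3.29, SE 0.165).

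In glycerophospholipid metabolism, 26 of 71 tested genes were lower and 31 higher, beside 38.7% and 40.9% of all tested genes. *PCYT2*, of phosphatidylethanolamine synthesis, fell with a log₂FC of -1.84 (SE 0.0848), while the choline kinase *CHKA* rose with 1.64 (SE 0.0687). *PLA2G4A*, the phospholipase that releases arachidonate, fell from 16.9 ± 0.315 to 1.15 ± 0.366 CPM (SD, n = 3 each). Under the PPAR pathway, 23 of 49 tested genes were lower and 18 higher, beside the same shares. *ANGPTL4*, a lipoprotein lipase inhibitor, had a log₂FC of 3.82 (SE 0.125) and *PPARA* had 1.29 (SE 0.110). All of these were called with edgeR's adjusted p under 0.05.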
